A study of Mus musculus with 460 samples.

Results

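The imprinted growth genes described here are Dlk1, Meg3, Rian, Mirg, Peg3, Plagl1, Cdkn1c, Mest, Grb10 and H19, 10 of the 48440 genes in a table of molecular barcode counts from 460 single mouse cells. They were chosen by symbol, as imprinted genes already seen to vary in these cells, so their spread among cells and between cells is described here without a test. The 10 genes fall into the 4 members of the Dlk1-Meg3-Rian-Mirg locus on chromosome 12 and 6 members elsewhere. The cells are labelled as tumour-derived cancer-associated fibroblasts (CAFs), the stromal cells of a carcinoma, and were taken from mice with lung adenocarcinoma. Every cell came from the same genotype and disease, with no cell of a healthy lung, no treatment and no age in the labels. No animal or culture is named either, so the 460 cells stand as 1 sample, and no p-value or standard error was computed. A comparison was made between the cells with more Rgs5 than Pdgfra counts, which were 44.1% of the 460, and the remaining 55.9%. No cell had the same count of both genes.

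Imprinted genes are expressed mainly from the copy inherited from 1 parent, and many of them act on growth before and after birth. At the chromosome 12 locus the paternal copy gives the coding RNAs of Dlk1 and Rtl1, while the maternal copy gives a set of noncoding RNAs read in the same direction, Meg3, Rian and Mirg, which host small nucleolar RNAs and microRNAs. Peg3, Plagl1 and Mest are expressed from the paternal copy and Cdkn1c and H19 from the maternal copy, while Grb10 is maternal in most tissues. Many of these genes are expressed together in fetal organs and decline after birth, and Plagl1 is known as a regulator of several others. The counts carry no allele, so which parental copy gave a transcript cannot be told here.

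The promoter windows of the 4 locus members are shown because the 3 noncoding members were counted together in the same cells, and Dlk1 more loosely with them. A relation of the windows to the counts was not tested. Each window holds 250 bases before and 50 after an annotated start, 5′ to 3′ on the + strand of GRCm38, from RefSeq, and capitals mark each CG dinucleotide, the site of DNA methylation. The windows lie at chr12:109452573-109452872 for Dlk1, chr12:109540746-109541045 for the upstream start of Meg3, chr12:109603695-109603994 for Rian and chr12:109734731-109735030 for Mirg. The Mirg window lies inside the counted Mirg row, which starts at chr12:109729764.
Dlk1: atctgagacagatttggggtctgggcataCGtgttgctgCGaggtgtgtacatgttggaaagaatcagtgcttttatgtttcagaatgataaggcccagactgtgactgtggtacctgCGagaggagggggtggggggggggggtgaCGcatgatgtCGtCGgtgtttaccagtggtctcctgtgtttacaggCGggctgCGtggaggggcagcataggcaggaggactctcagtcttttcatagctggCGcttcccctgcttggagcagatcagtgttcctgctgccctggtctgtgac
Meg3: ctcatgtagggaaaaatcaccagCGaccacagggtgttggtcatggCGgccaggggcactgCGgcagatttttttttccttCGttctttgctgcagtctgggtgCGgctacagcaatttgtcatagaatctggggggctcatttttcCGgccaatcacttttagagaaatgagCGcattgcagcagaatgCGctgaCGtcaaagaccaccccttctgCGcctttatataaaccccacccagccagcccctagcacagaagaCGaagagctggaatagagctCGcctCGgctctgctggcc
Rian: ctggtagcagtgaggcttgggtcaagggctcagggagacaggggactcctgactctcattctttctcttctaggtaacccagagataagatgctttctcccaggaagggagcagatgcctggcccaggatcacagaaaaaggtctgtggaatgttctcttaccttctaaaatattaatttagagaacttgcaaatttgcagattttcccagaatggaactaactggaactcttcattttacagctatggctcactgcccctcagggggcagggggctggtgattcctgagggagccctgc
Mirg: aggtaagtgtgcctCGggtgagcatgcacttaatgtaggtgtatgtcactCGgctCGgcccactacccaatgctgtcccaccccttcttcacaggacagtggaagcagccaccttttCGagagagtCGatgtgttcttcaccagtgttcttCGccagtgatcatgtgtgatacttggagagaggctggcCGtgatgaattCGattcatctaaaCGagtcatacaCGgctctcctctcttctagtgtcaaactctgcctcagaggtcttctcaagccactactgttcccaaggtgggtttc
The windows held 9 CG dinucleotides at Dlk1, 13 at Meg3, 0 at Rian and 10 at Mirg, against a median of 7 over all 32851 promoter windows, of which the central 90% held between 0 and 37. The Meg3 window alone among these 4 held the letters TATAAA, with 2 overlapping matches over both strands, and the letters TGCCGC, with 1 match. Over all windows, 13.6% held the first of these and 11.6% the second on either strand. CCAAT stood once in the Meg3 and once in the Mirg window, and in 37.4% of all windows. Of the 10 members, 8 had a RefSeq window.

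Cells held 25029 to 240496 counts, with a median of 76944 in the cells with more Rgs5 than Pdgfra and of 96654 in the remaining cells. The median level of Rgs5, a marker of pericytes and other mural cells, was 5064 CPM (counts per 1000000 counts) in the Rgs5 > Pdgfra cells and 261.6 CPM in the remaining cells. That of Pdgfra, a fibroblast receptor, was 260.3 CPM in the Rgs5 > Pdgfra cells and 1769 CPM in the remaining cells. In 70 cells the 2 counts lay within 2-fold of each other, so the sets are sides of a range and carry no cell type name. Of 9 mural genes, 7 were at least 2-fold higher in the Rgs5 > Pdgfra cells, against 4.35% of all genes with at least 5 CPM over all cells. The 7 include Rgs5 itself, by which the cells were divided. Higd1b, 1 of the 7, had 101.6 CPM there and only 3.90 CPM in the remaining cells. It reached 5 CPM through the Rgs5 > Pdgfra cells alone. Genes of some other lineages went with the sets too. Among genes with at least 5 CPM over all cells, 5 of 9 epithelial, 5 of 5 immune and 3 of 5 mesothelial markers were at least 2-fold higher in the Rgs5 > Pdgfra cells, against 4.35% of all such genes. Of these, Krt18, Csf1r, Tyrobp, Msln, Upk3b and Lrrn4 reached that level through the Rgs5 > Pdgfra cells alone. Epcam, Cd3e and Adgre1, below that level, were also at least 2-fold higher there. Summed levels of the epithelial, immune and mesothelial lists ranged from 0 to 23011, 8817 and 8320 CPM in single Rgs5 > Pdgfra cells. In single remaining cells they ranged from 0 to 24990, 5830 and 887 CPM. No marker of these 3 lists was at 0 over all cells. The part of these RNAs in the results below was not tested, except where values are given. Sftpc, the surfactant gene of alveolar type II epithelium that mesenchymal cells should lack, had a count in 80.9% of all cells (95% exact binomial interval 76.97 to 84.4). For that reason no share of cells under that of Sftpc is read here as a share of expressing cells.

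Detection of the 10 members ran from nearly every cell to 12 cells. Grb10 had a count in 97.6% of the 460 cells, Meg3 in 91.96%, Rian in 81.7%, Plagl1 in 68.5%, Peg3 in 64.3%, Dlk1 in 54.8%, Mirg in 35.2%, Cdkn1c in 33.9%, Mest in 8.48% and H19 in 2.61%. After every cell was thinned to 56586 counts, which left out 46 shallower cells, the shares were 97.8% for Grb10, 87.7% for Meg3, 72.9% for Rian, 60.9% for Plagl1, 55.3% for Peg3, 45.7% for Dlk1, 29.2% for Mirg, 28.99% for Cdkn1c, 6.28% for Mest and 2.17% for H19. The order of the genes by share was the same at both depths. Per kilobase of merged exon, Grb10 (28.1 CPM), Meg3 (25.6) and Plagl1 (20.01) were the most abundant members and Mest (1.43) and H19 (1.05) the least. Dlk1 (11.8), Rian (11.7) and Cdkn1c (11.1) had nearly the same level per kilobase, although Rian was counted in many more cells than Cdkn1c. Whether barcode counts grow with transcript length in these libraries is not given in the sources used here.

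**Figure D1:**
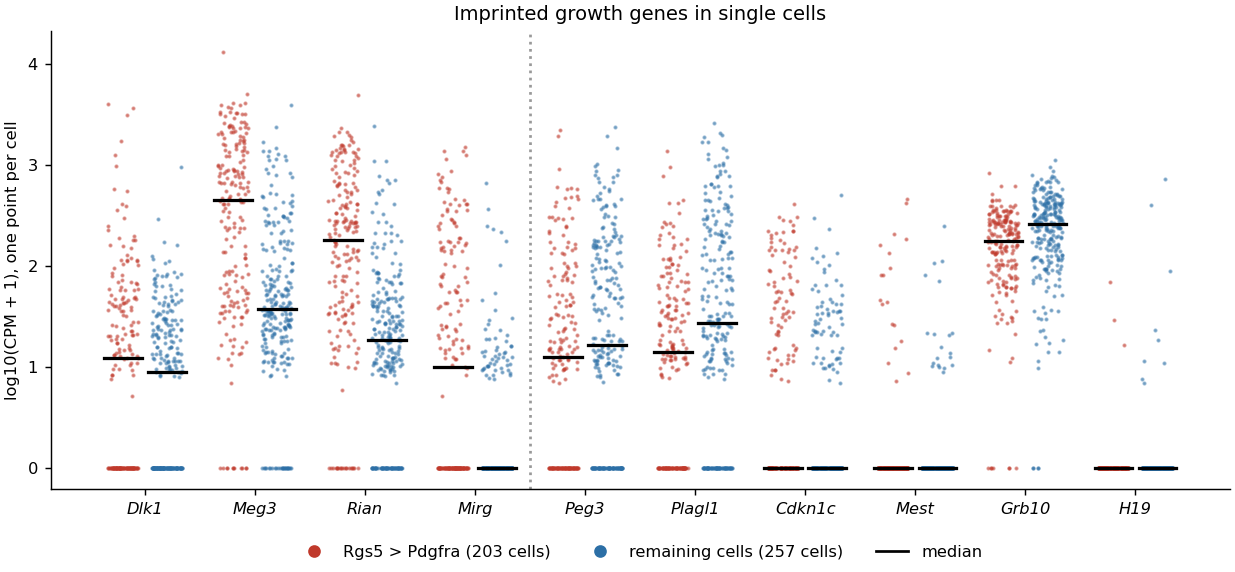
Each point is 1 cell, on a log10(CPM + 1) axis, with the Rgs5 > Pdgfra cells left of the remaining cells for each gene and the black bar at the median; the dotted line parts the locus from the other members. The bars of Meg3 lie at 450.3 CPM and 36.8 CPM, the widest gap in the plot, while cells of both sets reach from 0 to over 1000 CPM.

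Most members were held by few cells. The 46 cells with the most counts of a gene, 10% of the cells, held 81.3% of all Dlk1 counts, 57.8% of Meg3, 64.1% of Rian, 84.5% of Mirg, 67.4% of Peg3, 72.3% of Plagl1, 72.4% of Cdkn1c and 31.3% of Grb10. Over all 13975 genes counted in at least 10% of cells the median of this share was 47.98%. That share falls with the level of a gene, and its median was 25.5% over the 732 genes between 200 and 500 CPM, with a 95th percentile of 47.7%. Meg3 (463.4 CPM over all cells) and Rian (212.7 CPM) lie in that range of levels and above that percentile, and Grb10 (255.03 CPM) lies in the same range and near its median. The first 50% of all counts lay in 4 cells for Dlk1, 15 for Mirg, 20 for Plagl1, 23 for Cdkn1c, 24 for Peg3, 31 for Rian, 37 for Meg3 and 96 for Grb10. For Mest, counted in 39 cells, 5 cells held 50% of the counts, and for H19, counted in 12 cells, 2 cells did.

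**Figure D2:**
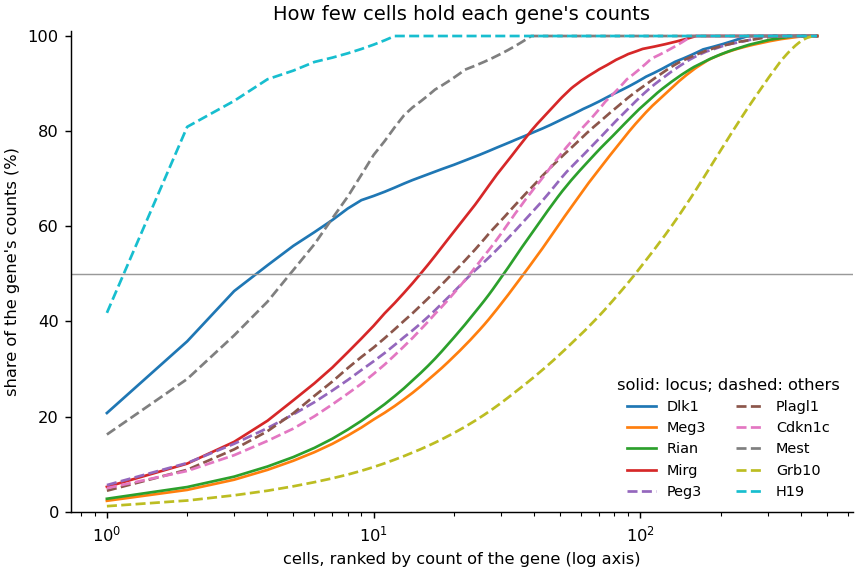
The share of each gene's counts (vertical axis, percent) held by its highest cells (horizontal axis, number of cells on a log scale), with solid lines for the locus and dashed lines for the other members. H19, Mest and Dlk1 reach 50% within 5 cells, and Grb10 needs 96.

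Between the 2 sets of cells the locus stood apart from the other members. All 4 locus members were at least 2-fold higher in the Rgs5 > Pdgfra cells by summed CPM with 1 CPM added, where 4.35% of the 12014 genes with at least 5 CPM were at least 2-fold higher and 4.91% at least 2-fold lower. Of the 6 other members, 5 passed that filter: Cdkn1c and Mest were at least 2-fold higher, Plagl1 was at least 2-fold lower, and Peg3 and Grb10 lay within 2-fold. H19, at 2.58 CPM, did not pass it. The members were selected on earlier results of the same cells, so these counts describe the selection and carry no test. The median log2 difference was 2.64 over the 4 locus members and -0.63 over the 6 others, against 0.02 over all genes past the filter. In bulk sums such as these, a larger share of cells with a transcript and more transcript per cell cannot be told apart, so values of single cells are given with each gene.

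Meg3, a noncoding RNA known to restrain growth in several cell types, was the most abundant member of the locus, with 915.7 CPM in the Rgs5 > Pdgfra cells and 164.3 CPM in the remaining cells, a ratio of 5.57 (95% interval 5.39 to 5.77, counting error only). Single Rgs5 > Pdgfra cells ran from 0 to 13107 CPM with a median of 450.3 and quartiles of 52.7 and 1404 CPM. The remaining cells ran from 0 to 3884 CPM with a median of 36.8 and quartiles of 17.4 and 118.8 CPM. The sets overlapped over most of their range, and the lowest Rgs5 > Pdgfra cells lay where most remaining cells did. At least 100 CPM of Meg3 stood in 65.5% of the Rgs5 > Pdgfra cells and 26.8% of the remaining cells, and at least 1000 CPM in 61 Rgs5 > Pdgfra cells and 12 remaining cells. The share of cells with any count differed far less, at 94.6% of Rgs5 > Pdgfra cells (interval 90.5 to 97.3) and 89.9% of the remaining cells (85.5 to 93.3).

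Rian, a noncoding RNA that hosts a cluster of small nucleolar RNAs, had 428.6 CPM in the Rgs5 > Pdgfra cells and 69.97 CPM in the remaining cells (ratio 6.13, interval 5.82 to 6.45). Its median was 181.7 CPM (range 0 to 4979) in single Rgs5 > Pdgfra cells and 17.7 CPM (range 0 to 2436) in the remaining cells. It had a count in 90.6% of Rgs5 > Pdgfra cells and 74.7% of the remaining cells, and after thinning in 87.1% of Rgs5 > Pdgfra cells and 62.96% of the remaining cells. Mirg, the host RNA of a large microRNA cluster at the far end of the locus, had 112.8 CPM in the Rgs5 > Pdgfra cells and 11.6 CPM in the remaining cells (ratio 9.74, interval 8.62 to 11.05). It was counted in 51.7% of Rgs5 > Pdgfra cells and 22.2% of the remaining cells, so its median was 9.02 CPM in the Rgs5 > Pdgfra cells and 0 in the remaining cells. The highest cell had 1500 CPM among the Rgs5 > Pdgfra cells and 669.6 CPM among the remaining cells. At least 100 CPM of Mirg stood in 51 Rgs5 > Pdgfra cells and in 7 remaining cells.

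Dlk1, a membrane protein of the Notch ligand family that marks immature mesenchymal and other progenitor cells, had 136.6 CPM in the Rgs5 > Pdgfra cells and 20.5 CPM in the remaining cells, a ratio of 6.67 (interval 6.07 to 7.35). That difference rested on few cells. The 5 highest Dlk1 cells, all with more Rgs5 than Pdgfra, had 4021, 3652, 3098, 1725 and 1267 CPM of it, and held 55.9% of all its counts. Without these 5 cells the level was 44.3 CPM in the Rgs5 > Pdgfra cells and 20.5 CPM in the remaining cells, a log2 difference of 1.08 in place of 2.68. Medians differed little, at 11.4 CPM in single Rgs5 > Pdgfra cells (range 0 to 4021) and 8.06 CPM in the remaining cells (range 0 to 946.7), and a count stood in 57.1% of Rgs5 > Pdgfra cells (interval 50.03 to 64.1) and 52.9% of the remaining cells (46.6 to 59.2).

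Each of those 5 cells also held the noncoding members. From the highest Dlk1 cell down, they had 2583, 1357, 2034, 862.4 and 2392 CPM of Meg3. Their Rian levels were 1315, 1101, 1126, 313.6 and 863.01 CPM and their Mirg levels 402.1, 674.1, 433.7, 44.8 and 54.6 CPM in the same order of cells. All 5 held Cdkn1c as well, at 54.5 to 152.9 CPM. The seventh cell by Dlk1, with 72 counts, had more Pdgfra than Rgs5, only 3 Meg3 counts and 1854 CPM of posterior Hox genes, and so differed from those before it. Of the cells with at least 100 CPM of Dlk1, 24 of 30 Rgs5 > Pdgfra cells and 2 of 8 remaining cells also had at least 100 CPM of Meg3, where 65.5% of all Rgs5 > Pdgfra cells and 26.8% of all remaining cells did. Of the 73 cells with at least 1000 CPM of Meg3, 13 had at least 100 CPM of Dlk1 (17.8%, against 8.26% of all cells), and all 13 were Rgs5 > Pdgfra cells, of which 14.8% in all reached that Dlk1 level.

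Over all cells, counts of Dlk1 went with epithelial RNA. The genes closest to Dlk1 across the 460 cells were Sftpc (Spearman 0.44), Sftpb (0.42) and Slc34a2 (0.41), all of alveolar type II cells, in libraries that share 1 table and differ in depth. Where the neighbouring columns of the table carried Sftpc, which was so for 72.4% of cells, Dlk1 had a count in 68.3% of the Rgs5 > Pdgfra cells and 65.5% of the remaining cells. In the other 27.6%, whose neighbouring columns were low in Sftpc, it had a count in 32.8% of 64 Rgs5 > Pdgfra cells (interval 21.6 to 45.7) and 14.3% of 63 remaining cells (6.75 to 25.4). Sftpc itself was counted in 98.8% of cells in the first kind of column and in 33.9% in the second. Within the first kind, the correlation with Sftpc was 0.31 for Dlk1, 0.29 for Meg3, 0.27 for Rian and 0.17 for Mirg. Within the second it was 0.097 for Dlk1, -0.08 for Meg3, -0.07 for Rian and -0.11 for Mirg. Over all cells it was 0.12 for Meg3, 0.16 for Rian and 0.06 for Mirg. The level of Dlk1 in the low-Sftpc columns was 85.3 CPM in the Rgs5 > Pdgfra cells and 3.32 CPM in the remaining cells, the second from 18 counts. With 1 CPM added that is a ratio of 19.96 there, against 6.06 in the columns with Sftpc. The 5 highest Dlk1 cells, from the highest down, had 5418, 1126, 433.7, 22.4 and 0 CPM of Sftpc, and the last 2 lay in the low-Sftpc columns. The highest, which held 20.8% of all Dlk1 counts, had 15967 CPM over the 10 epithelial markers, and the second had 1903 CPM. The part of epithelial RNA in the Dlk1 of these cells was not tested. For the noncoding members the same split mattered less to detection: Meg3 was counted in 92.2% of cells in Sftpc columns and 91.3% in columns low in Sftpc. Their difference between sets was smaller in the columns low in Sftpc, at 805.4 CPM of Meg3 in the Rgs5 > Pdgfra cells and 250.8 CPM in the remaining cells, a log2 difference of 1.68, and likewise 1.68 for Rian and 2.57 for Mirg.

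Meg3, Rian and Mirg were counted together. Across the 460 cells the Spearman correlation was 0.79 between Meg3 and Rian, 0.57 between Meg3 and Mirg and 0.58 between Rian and Mirg, on the log1p scale after counts were set to 10000 a cell. The median over all pairs of the 13975 genes was 0.015, and their 99th percentile was 0.159. After thinning the same 3 values were 0.78, 0.57 and 0.56. The correlations held inside the Rgs5 > Pdgfra cells alone, at 0.91, 0.70 and 0.70, and were lower in the remaining cells, at 0.55, 0.31 and 0.31. Fewer counts stand behind the values in the remaining cells, and the difference between the sets was not tested. Of the 46 cells highest in Meg3, 38 were also among the 46 highest in Rian and 23 among those of Mirg, where the product of the shares gives 4.6. Every one of the 73 cells with at least 1000 CPM of Meg3 had at least 100 CPM of Rian, and 62 of them had a count of Mirg. Among cells with at least 50 Meg3 counts, Rian had a median of 0.431 counts per Meg3 count in 82 Rgs5 > Pdgfra cells and 0.390 in 23 remaining cells. From the 10th to the 90th percentile of all these cells the ratio ran from 0.183 to 0.693.

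Dlk1 was tied to them more loosely, with correlations of 0.18 with Meg3, 0.19 with Rian and 0.12 with Mirg. Over all gene pairs the 95th percentile was 0.108 and the 99th percentile 0.159. The values with Meg3 and Rian lay above the 99th percentile, and that with Mirg above the 95th. Its 46 highest cells included 9 of those of Meg3, 10 of Rian and 7 of Mirg, where the product of the shares gives 4.6. A count of both Dlk1 and Meg3 stood in 51.7% of cells, where the product of their shares gives 50.4%. Meg3 itself had a count in 91.96% of cells, which leaves these values little room to differ. All 4 locus members were counted in 31.5% of the Rgs5 > Pdgfra cells (interval 25.2 to 38.4) and 10.9% of the remaining cells (7.36 to 15.4), and after thinning in 25.1% of Rgs5 > Pdgfra cells and 5.35% of the remaining cells.

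**Figure D3:**
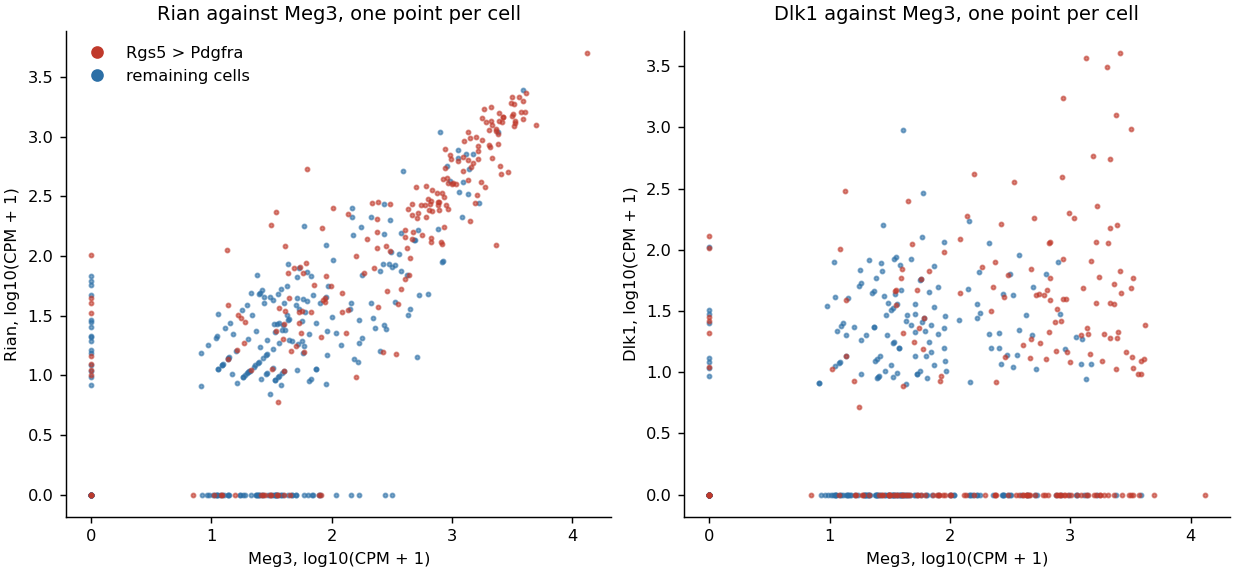
Rian (left) and Dlk1 (right) against Meg3, one point per cell on log10(CPM + 1) axes, with Rgs5 > Pdgfra cells in red and the remaining cells in blue. Rian follows Meg3 along a line (Spearman 0.79 over 460 cells) while Dlk1 spreads over all Meg3 levels (0.18).

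Other annotated rows between Dlk1 and Mirg had nearly the same pattern as the noncoding members. Rtl1, a gene derived from a retrotransposon that acts in the placenta, lies on the opposite strand from the noncoding RNAs, at chr12:109589193-109600330 in GRCm38. It had 160.9 CPM in the Rgs5 > Pdgfra cells and 16.8 CPM in the remaining cells (ratio 9.56, interval 8.63 to 10.6), and its correlation with Meg3 was 0.60 over all cells and 0.76 within the Rgs5 > Pdgfra cells. Whether the counting used strand is not given in the sources used here, so reads of Rtl1 and of a maternal RNA read through the same stretch cannot be told apart. Of the 73 cells with at least 1000 CPM of Meg3, 70 had a count of Rtl1. Gm26945, which lies inside Rian, and Gm37899 and B830012L14Rik, between Rian and Mirg, were 5.48-fold, 5.49-fold and 4.97-fold higher in the Rgs5 > Pdgfra cells on the CPM + 1 scale. Gm26945 overlaps Rian, so its counts are not separate evidence. Dio3, the far coding gene of the same imprinted domain, had 28 counts in the Rgs5 > Pdgfra cells and 68 in the remaining cells (1.65 against 2.65 CPM). Begain, upstream of Dlk1, had 10.9 CPM in the Rgs5 > Pdgfra cells against 0.663 CPM in the remaining cells, while Yy1, a broadly expressed neighbour further off, had 46.4 against 46.3 CPM. Of the 67 microRNA rows between Dlk1 and Dio3, 23 had any count and the highest had 35, and of the 23 small nucleolar RNA rows 4 had any count and the highest had 21.

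**Figure D4:**
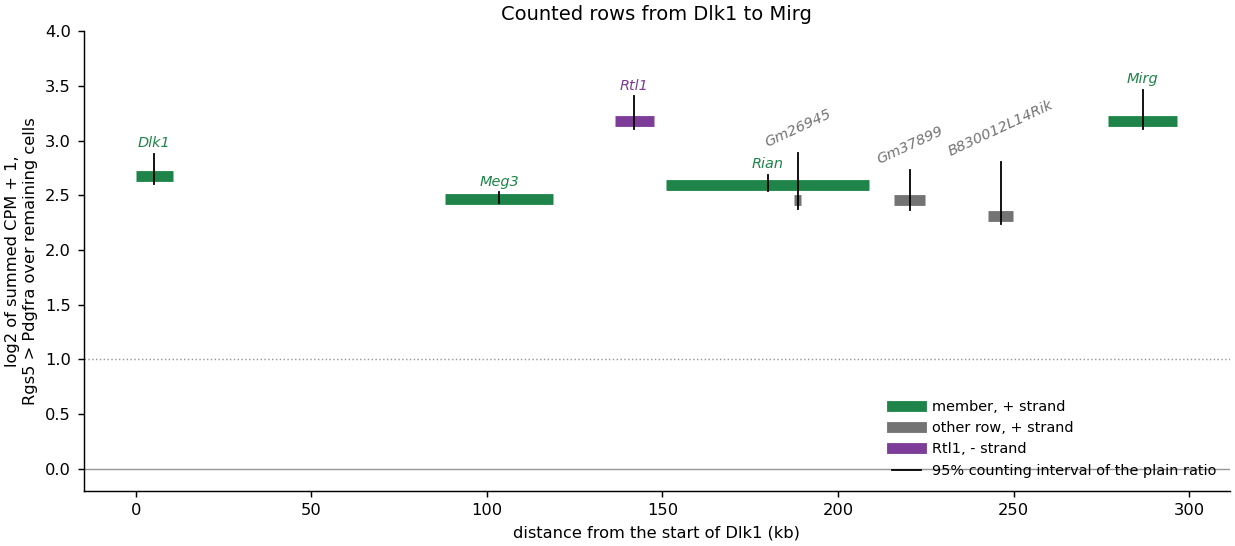
Distance from the start of Dlk1 (horizontal axis, kb) and the log2 ratio of summed CPM + 1 in Rgs5 > Pdgfra cells over the remaining cells (vertical axis) for each row from Dlk1 to Mirg with at least 50 counts, with black lines for the counting interval of the plain ratio. Dio3, further along with 96 counts and a log2 difference of -0.46, is not drawn. All 8 rows from Dlk1 to Mirg lie above 2 on the log2 scale, Rtl1 and Mirg highest.

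Among the other members, Plagl1, a zinc finger transcription factor that slows proliferation, had 62.7 CPM in the Rgs5 > Pdgfra cells and 218.4 CPM in the remaining cells (ratio 0.287, interval 0.269 to 0.307). In single cells its median was 13.1 CPM (range 0 to 1366) in the Rgs5 > Pdgfra cells and 26.4 CPM (range 0 to 2618) in the remaining cells, and a count stood in 62.6% of Rgs5 > Pdgfra cells against 73.2% of the remaining cells. At least 100 CPM stood in 30 Rgs5 > Pdgfra cells and 84 remaining cells, and of the 46 highest cells 6 had more Rgs5 than Pdgfra. Without its 5 highest cells, none of them an Rgs5 > Pdgfra cell, the log2 difference was -1.46 in place of -1.78. Plagl2, a gene of the same family, had 50.2 CPM in the Rgs5 > Pdgfra cells and 46.8 CPM in the remaining cells. Plag1, the other family gene, had 3.07 CPM against 2.57 CPM in the remaining cells.

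Grb10, an adaptor that binds the insulin and IGF1 receptors and dampens their signal, was the evenly spread member. It had 190.1 CPM in the Rgs5 > Pdgfra cells and 297.9 CPM in the remaining cells, a ratio of 0.638 (interval 0.613 to 0.665), within 2-fold. Its quartiles were 84.2 and 273.01 CPM in single Rgs5 > Pdgfra cells and 121.96 and 405.9 CPM in the remaining cells. Of the genes around the same receptors, Irs2, the adaptor that passes the signal on, had 158.8 CPM in the Rgs5 > Pdgfra cells and 506.8 CPM in the remaining cells. Igf1r, at 209.7 against 313.2 CPM in the remaining cells, and Insr, at 161.4 against 131.2 CPM, lay within 2-fold. Of 6 such genes past the filter, Irs2 alone was past 2-fold, where 10901 of all 12014 genes past it lay within 2-fold. The median log2 difference of the 6 was -0.33.

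Peg3, a zinc finger gene, had 83.3 CPM in the Rgs5 > Pdgfra cells and 127.3 CPM in the remaining cells (ratio 0.655, interval 0.614 to 0.698). The direction of its summed level was not the same in both kinds of column. In the columns with Sftpc it had 59.8 CPM in the Rgs5 > Pdgfra cells and 141.4 CPM in the remaining cells, while in the columns low in Sftpc it had 142.8 CPM in the Rgs5 > Pdgfra cells and 74.6 CPM in the remaining cells. A count stood in 62.6% of Rgs5 > Pdgfra cells against 68.6% of the remaining cells in the columns with Sftpc, and in 56.2% against 63.5% in those low in it. Its highest cell had 2220 CPM among the Rgs5 > Pdgfra cells and 2379 CPM among the remaining cells. Zim1, next to Peg3 in its imprinted domain, had 9.26 against 10.9 CPM in the remaining cells and a count in 44 cells, and Zim3 was at 0 in all cells.

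Cdkn1c, an inhibitor of cyclin-dependent kinases that holds cells out of the cycle, had 37.9 CPM in the Rgs5 > Pdgfra cells and 12.6 CPM in the remaining cells (ratio 3.01, interval 2.63 to 3.45). It had a count in 41.4% of Rgs5 > Pdgfra cells (interval 34.5 to 48.5) and 28.02% of the remaining cells (22.6 to 33.9), and after thinning in 39.2% of Rgs5 > Pdgfra cells and 21.8% of the remaining cells. Its highest cells reached 411.8 CPM among the Rgs5 > Pdgfra cells and 503.3 CPM among the remaining cells, while at least 100 CPM stood in 27 Rgs5 > Pdgfra cells and 9 remaining cells. In the columns low in Sftpc the gap was under 2-fold, at 33.9 CPM in the Rgs5 > Pdgfra cells and 19.8 CPM in the remaining cells. None of the other 5 inhibitor genes past the filter was past 2-fold, where 10901 of all 12014 genes past it lay within 2-fold. Among the 5 were Cdkn1b (106.4 against 87.7 CPM in the remaining cells), Cdkn2b (48.9 against 82.2 CPM) and Cdkn1a (60.6 against 73.7 CPM). Of 5 cycling genes past the filter, 4 were at least 2-fold lower in the Rgs5 > Pdgfra cells, against 4.91% of all such genes. Ccna2, 1 of the 4, passed the filter through the remaining cells alone. The level of Mki67 was 37.5 CPM in the Rgs5 > Pdgfra cells and 85.6 CPM in the remaining cells, and Pcna lay within 2-fold. Mki67 had a count in 46.3% of Rgs5 > Pdgfra cells and 45.9% of the remaining cells, and at least 1000 CPM in 1 Rgs5 > Pdgfra cell and 5 remaining cells. Cdkn1c was counted in 41.3% of the 46 cells highest in cycling genes (interval 26.998 to 56.8) and 33.1% of the other cells (28.6 to 37.9).

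Over all 460 cells Cdkn1c was the member outside the locus with the highest correlation with each of its 4 members. Its correlation was 0.23 with Meg3 and with Rian, 0.12 with Mirg and 0.09 with Dlk1, and 16 of its 46 highest cells were among those of Meg3, where the product of the shares gives 4.6. Within the Rgs5 > Pdgfra cells its correlation with Meg3 was 0.24 and in the remaining cells 0.11. In the remaining cells that of Meg3 was higher with Grb10 (0.23), Plagl1 (0.18), H19 (0.17) and Peg3 (0.14). Of the 36 cells with at least 100 CPM of Cdkn1c, 26 had at least 100 CPM of Meg3.

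Mest, a hydrolase-like protein used as a marker of paternal expression, was rare, with 9.08 CPM from 19 Rgs5 > Pdgfra cells and 3.35 CPM from 20 remaining cells. It passed the 5 CPM filter through the Rgs5 > Pdgfra cells alone. Without the single highest cell, an Rgs5 > Pdgfra cell with 39 counts, the level was 6.82 CPM in the Rgs5 > Pdgfra cells and 3.35 CPM in the remaining cells, a difference under 2-fold on the CPM + 1 scale. The share of cells with a count was 9.36% of Rgs5 > Pdgfra cells (interval 5.73 to 14.2) and 7.78% of the remaining cells (4.82 to 11.8). Its top cells were of different kinds: the first held 66 counts of Plagl1 and 0 of Meg3, the third held 8320 CPM of mesothelial marker genes, and the fifth held 2066 CPM of Meg3.

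H19, a noncoding RNA abundant in fetal tissue and a growth restraint, had 0.472 CPM, or 8 counts, from 3 Rgs5 > Pdgfra cells and 3.98 CPM from 9 remaining cells. The 2 highest cells, both among the remaining cells, held 46 and 43 counts, and 5 of the 12 cells held 92.7% of all. Without the 5 highest cells the level was 0.0595 CPM in the Rgs5 > Pdgfra cells and 0.275 CPM in the remaining cells. Without the 46 cells highest in cycling genes the log2 difference was 0.14 in place of -1.76. The highest H19 cell also held 32 counts of Cdkn1c, 20 of Plagl1, 7 of Mest and 40 of Meg3, while the second held 0 of Cdkn1c, Plagl1 and Mest. Igf2, the growth factor that shares its imprinting control region and enhancers with H19, was abundant by contrast, with 59.6 CPM in the Rgs5 > Pdgfra cells and 343.4 CPM in the remaining cells. At least 100 CPM of Igf2 stood in 18 Rgs5 > Pdgfra cells and 92 remaining cells, of which 1 in all had a count of H19.

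The members outside the locus were not counted together as a set. The mean correlation over their 15 pairs was 0.04, and 0.01 over the 24 pairs of a locus member with another member, against 0.41 over the 6 pairs of the locus. The closest pair outside the locus was Plagl1 with Grb10, at 0.25 over all cells, 0.11 in the Rgs5 > Pdgfra cells and 0.30 in the remaining cells, and 13 of their 46 highest cells were shared. Plagl1 with Mest followed at 0.18, with Mest counted in 39 cells. Plagl1 had a correlation of 0.01 with Cdkn1c and 0.07 with H19, and -0.12 with Dlk1. A median of 3 of these 6 members was counted in a cell of either set.

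**Figure D5:**
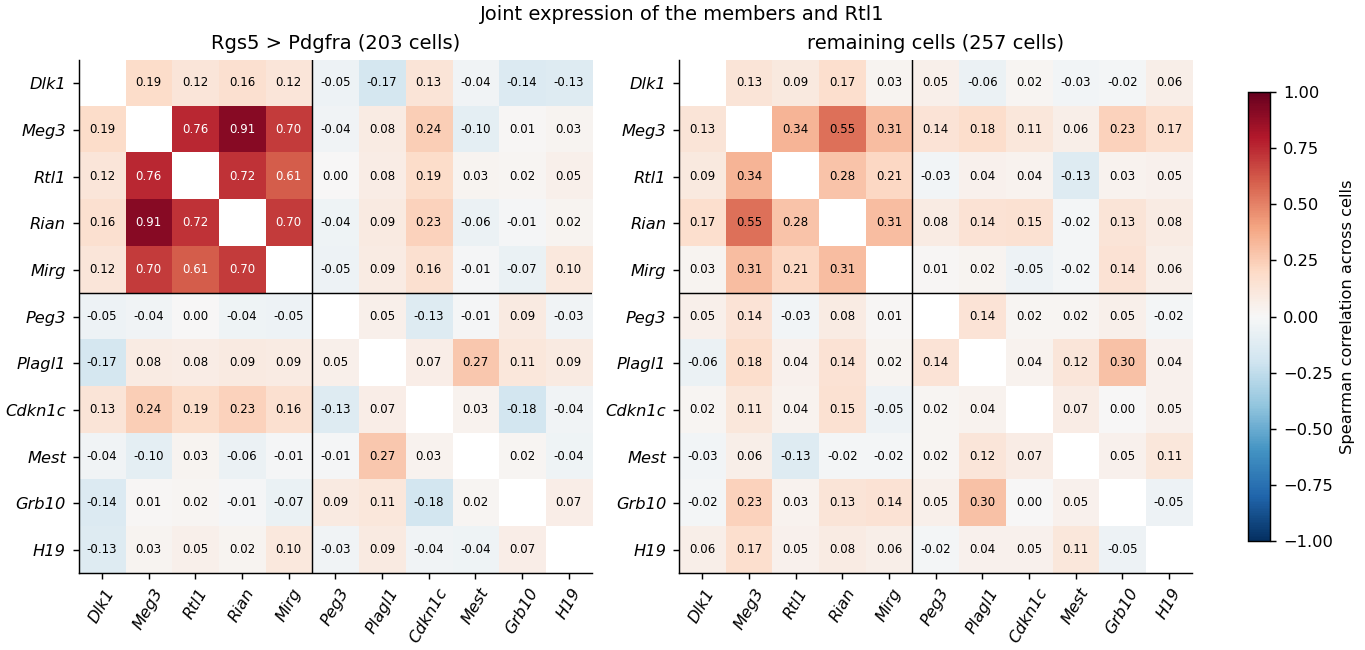
Spearman correlation across cells for each pair of members and Rtl1, in the Rgs5 > Pdgfra cells (left) and the remaining cells (right), with the locus in the upper left block of each panel. Within that block Meg3, Rtl1, Rian and Mirg reach 0.61 to 0.91 in the Rgs5 > Pdgfra cells, while the row of Dlk1 stays between 0.12 and 0.19.

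Most genes of other imprinted domains lay within 2-fold between the sets, as most genes of the table did. Of all 12014 genes past the filter, 10901 lay within 2-fold, 4.35% were at least 2-fold higher and 4.91% at least 2-fold lower. Of 31 further imprinted genes past the filter, all outside the chromosome 12 locus, Airn and Cobl were at least 2-fold higher in the Rgs5 > Pdgfra cells, Igf2, Nnat and Dcn at least 2-fold lower, and 26 lay within 2-fold, with a median log2 difference of 0.02, the same as over all genes. Airn, the noncoding RNA that silences Igf2r on the paternal copy, had 34.2 CPM in the Rgs5 > Pdgfra cells against 13.9 CPM in the remaining cells, and Igf2r, which clears IGF2, had 182.6 against 106.3 CPM. Cobl, an actin nucleator near Grb10, had 22.7 against 6.90 CPM in the remaining cells, and Dcn, which encodes the matrix proteoglycan decorin, had 229.7 against 1328 CPM. Dcn is itself one of the fibroblast marker genes, as is Pdgfra, by which the cells were divided. In the Cdkn1c domain on chromosome 7, Kcnq1ot1, the noncoding RNA that silences Cdkn1c on the paternal copy, had 399.1 against 385.4 CPM in the remaining cells, and Cd81 had 879.6 against 652.2 CPM. In the domain of Mest on chromosome 6, Copg2 had 32.1 against 22.6 CPM in the remaining cells, and elsewhere on that chromosome Sgce had 191.3 against 212.2 CPM. Nnat, which passed the filter through the remaining cells alone, had 4.07 against 9.59 CPM there, and Gnas, the stimulatory G protein subunit, 188.5 against 173.2 CPM. Of the Prader-Willi domain, Ndn had 10.97 against 13.5 CPM in the remaining cells and Ube3a 114.998 against 117.4 CPM. The rows of Magel2 and Snurf were at 0 in every cell, while Snrpn, of the same domain, had a count in 92 cells.

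Genes that set or keep imprints were mostly even, as most genes were. Of 10, 9 lay within 2-fold, where 10901 of all 12014 genes past the filter did. Among the 9 were Dnmt3a (102.4 CPM in the Rgs5 > Pdgfra cells against 118.8 CPM in the remaining cells), Trim28 (92.2 against 104.1 CPM) and Smchd1 (94.2 against 101.6 CPM). Zfp57, the zinc finger protein that protects imprints on the methylated copy, had 38.1 against 66.4 CPM in the remaining cells. Uhrf1, the partner of the maintenance methyltransferase that is high in cycling cells, had 1.89 against 8.97 CPM and was the 1 gene past 2-fold. It passed the filter through the remaining cells alone. Of 8 Notch receptors, ligands and targets past the filter, which Dlk1 is known to act on, 4 were at least 2-fold higher in the Rgs5 > Pdgfra cells. Over all genes past the filter 4.35% were. The 4 were Notch3 (1017 against 167.8 CPM in the remaining cells), Heyl (574.8 against 176.5 CPM), Hey1 (63.3 against 27.5 CPM) and Notch1 (243.4 against 120.2 CPM), and Notch3 is itself one of the mural genes. A relation of these genes to Dlk1 was not tested.

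For members outside the locus, the closest genes over the 460 cells had lower correlations than those among Meg3, Rian and Mirg. The 99th percentile over all gene pairs was 0.159, and these genes were picked as the highest. For Plagl1 they were Gpc6 (Spearman 0.41), Htra1 (0.39) and Ets2 (0.38), for Grb10 Cd34 (0.35), Tead1 (0.32) and Nfib (0.31), for Cdkn1c Higd1b (0.27), Adcy8 (0.26) and Emid1 (0.25), and for Peg3 Gria3 (0.20) and Gas6 (0.20). For Meg3, Rian and Mirg the 3 closest named genes were in each case the other 2 and Rtl1. For the sum of the 4 locus members they were Rtl1 (0.61), Rgs5 (0.53) and Ebf1 (0.48). Within the Rgs5 > Pdgfra cells the closest to that sum was Rtl1 (0.75). There Meg3 had a correlation of 0.35 with Rgs5 itself and 0.30 with Cxcr4, a chemokine receptor that varies among these cells, and over all 460 cells it had -0.31 with Igf2.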

How the data were processed

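The series holds RNA-seq of 460 single cells in 1 group. The authors deposited whole-number counts of molecular barcodes, with 48440 genes. Per the submitters' processing notes, STAR, HTSeq and mm10 were used, and per the labels' protocols the libraries were made by sonication and ligation. The step from reads to barcode counts and the use of strand are not given in the sources used here. The members and lists were chosen with earlier results of these data known.

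All cells were kept, doublets included, and no doublet caller was run. No 2 columns were identical. Where a symbol was repeated (119 symbols), the row with the larger summed count stood for it. CPM is a summed count scaled to 1000000. Log2 differences add 1 CPM and are called at 2-fold, among genes with at least 5 CPM. Ties would have gone to the remaining cells. Shares carry exact Clopper-Pearson and sums exact Poisson 95% intervals, and ratios an exact interval from the binomial split of counts. All cover counting error only. Thinning to 56586 counts, the 10th percentile, left out 32 Rgs5 > Pdgfra cells and 14 remaining cells. Columns count as low in Sftpc where most of the 20 nearest columns have under 30 CPM of it. Positions and exon lengths come from GENCODE vM21 (GRCm38, the same assembly as mm10), which matched 48058 identifiers.

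The text names every member, the 3 genes of each list with the highest CPM and other list genes past 2-fold, and the 3 genes closest to each member counted in at least 10% of cells, without unnamed, ribosomal protein and mitochondrial genes. Of the short imprinted lists it names a selection made after the values were seen, as are the top cells, Begain, Yy1 and the unnamed rows of the locus. Some genes that this rule names, and results that need them, are not reported here. Calculations ran in Python 3.11.15 with scipy 1.17.1, numpy 2.4.6 and pandas 2.3.3, and figures in matplotlib 3.10.9. The calculations were tested on simulated data.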

Additional observations from a re-analysis of the deposited data

How the results depend on the processing

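Under every alternative run the 4 locus members stayed at least 2-fold higher in the Rgs5 > Pdgfra cells and Plagl1 at least 2-fold lower. Their log2 differences ranged from 1.08 to 4.32 for Dlk1, 1.68 to 2.81 for Meg3, 1.68 to 3.17 for Rian, 2.57 to 3.83 for Mirg and -2.16 to -1.46 for Plagl1. The Dlk1 difference rested on its highest cells. Those with at least 100 CPM of it held 78.2% of its counts. Among cells under 100 CPM, Dlk1 had 16.9 CPM in the Rgs5 > Pdgfra cells and 14.9 CPM in the remaining cells, a ratio of 1.14. Cdkn1c was under 2-fold in the columns low in Sftpc (0.75). Mest was under 2-fold without the deepest cells, after thinning, with a 2-fold class limit, and without its highest cell or its 5 highest cells (lowest 0.49). H19, at -1.76, became 0.14 without the 46 most cycling cells and -0.27 without its 5 highest cells. Peg3, at -0.61, was 0.93 in the columns low in Sftpc. The median over the 6 other members, -0.63, was 0.053 in the columns low in Sftpc, and members at least 2-fold lower numbered 2 in the columns with Sftpc, where Peg3 joined Plagl1. The cause was not tested.

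The median share of cells with a count over the 10 members, 59.6%, was 50.5% after thinning, 66.4% in columns with Sftpc, 49.2% in columns low in it, and 41.5% where at least 2 counts were asked for. The mean correlation of the locus, 0.41, was 0.49 in columns low in Sftpc, 0.49 by Pearson, 0.46 within the Rgs5 > Pdgfra cells and 0.25 within the remaining cells. For Meg3, Rian and Mirg alone, 0.65, it was 0.78 by Pearson, 0.77 within the Rgs5 > Pdgfra cells and 0.39 within the remaining cells. Of 86 alternative values of the summary results, 73 stayed close to the main value and 13 moved. No paired analysis was possible because all cells belong to 1 group. One table from cells of unnamed animals, with no group to compare, limits all of this to a description, and members with few counts, Mest and H19 above all, turn on single cells.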
